A study of Homo sapiens with 6 samples.

Results

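The 53BP1 and shieldin axis with its break ubiquitin ligases was followed in human DIvA cells that lack or carry p53, as 10 genes taken by symbol from a count table of 55882 rows: MDC1, TP53BP1, RNF8, RNF168, RAD18, FAM35A, MAD2L2, RIF1, PAXIP1 and USP28. All 10 were found and all 10 passed the filter on low counts. DIvA cells derive from the osteosarcoma line U2OS and carry a restriction enzyme fused to a hormone-binding domain, so that 4-hydroxytamoxifen (4-OHT) brings it into the nucleus, where it cuts DNA. There were 3 p53 KO libraries and 3 p53 WT libraries of polyadenylated RNA, and cells of both groups had received 300 nM 4-OHT for 5 h. No cells without 4-OHT were analysed here, so every difference given is between genotypes after breaks were induced. The labels do not say how many knockout clones were used or whether replicates were separate cultures, so the p-values measure the spread between these samples only.

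At a double-strand break the kinase ATM phosphorylates a histone H2A variant. MDC1 binds that mark and brings in the ubiquitin ligase RNF8, and RNF168 then ubiquitylates histone H2A around the break. 53BP1, the product of TP53BP1, reads this ubiquitin mark together with histone H4 methylation and recruits RIF1, shieldin and PTIP, which hold back resection of the ends and so favour end joining over homologous recombination. 53BP1 was first described as a p53-binding protein, and with USP28 it also signals to p53 after prolonged mitosis.

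Total counts were 72621732, 40043686 and 20393909 in p53 KO replicates 1, 2 and 3, against 79767519, 67889247 and 24347609 in p53 WT replicates 1, 2 and 3. The p53 targets CDKN1A and MDM2 had log2 fold changes of -3.56 and -1.93 (p53 KO over p53 WT). In bulk RNA, fewer cells of a type and less RNA per cell cannot be told apart. Of 11 tested mesenchymal and osteoblast markers 6 fell and 1, COL1A1, rose. Their summed level was 3463 to 3870 CPM (counts scaled to the size of the library and its TMM composition factor) in p53 KO. In p53 WT it was 5412 to 6015 CPM. VIM weighed most in that sum, with means of 1618 CPM in p53 KO and 3333 CPM in p53 WT. COL1A1 had means of 930 CPM in p53 KO and 688 CPM in p53 WT. VIM, SPARC and COL1A1 were all well detected, and IBSP was at 0 counts in every library. Other markers of this list were near the floor. Means in p53 KO and p53 WT were 0.49 and 0.31 CPM for COL1A2, 1.63 and 1.58 CPM for BGLAP, and 0.92 and 0.91 CPM for S100A4. Of 8 epithelial markers 1, KRT8, rose, with a summed level of 581 to 707 CPM in p53 KO and 495 to 552 CPM in p53 WT. KRT18, which was not called, weighed most in that sum, with means of 395 CPM in p53 KO and 367 CPM in p53 WT. Leukocyte markers summed to 10.6 to 12.97 CPM in p53 KO and 14.2 to 16.9 CPM in p53 WT, with LYZ at 0 counts, and CORO1A rose while CD68 fell. Endothelial markers summed to 13.8 to 19.5 CPM in p53 KO and 10.8 to 12.6 CPM in p53 WT, and ERG rose. Of 10 proliferation markers 4 rose and 0 fell, with a summed level of 2946 to 3532 CPM in p53 KO and 2401 to 2839 CPM in p53 WT. Markers are said to rise or fall at an adjusted p under 0.05 by edgeR. Of all 22352 genes tested 12.1% rose and 14.4% fell by that threshold. Among protein-coding genes averaging 2 CPM or more the shares were 17.2% and 20.6%. The part of these marker differences in the results below was not tested.

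The axis did not shift as a block. In p53 KO cells 4 genes were higher (USP28, MDC1, RAD18 and RNF8), 2 were lower (FAM35A and RNF168), and TP53BP1, MAD2L2, RIF1 and PAXIP1 did not pass the threshold, which was an adjusted p under 0.05 by edgeR over all genes. Across the 22352 genes tested 26.5% were called, 12.1% higher and 14.4% lower. Among the 11405 genes whose mean level lay within the range of these 10 genes, 37.2% were called, 16.4% higher and 20.8% lower. The median log2 fold change of the 10 genes was 0.29, against 0.0052 over all genes tested. The groups did not overlap for the 6 called genes, and they overlapped for the other 4. Over all genes tested the groups did not overlap for 40.8%, with p53 KO above for 19.4% and below for 21.4%.

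**Figure D1:**
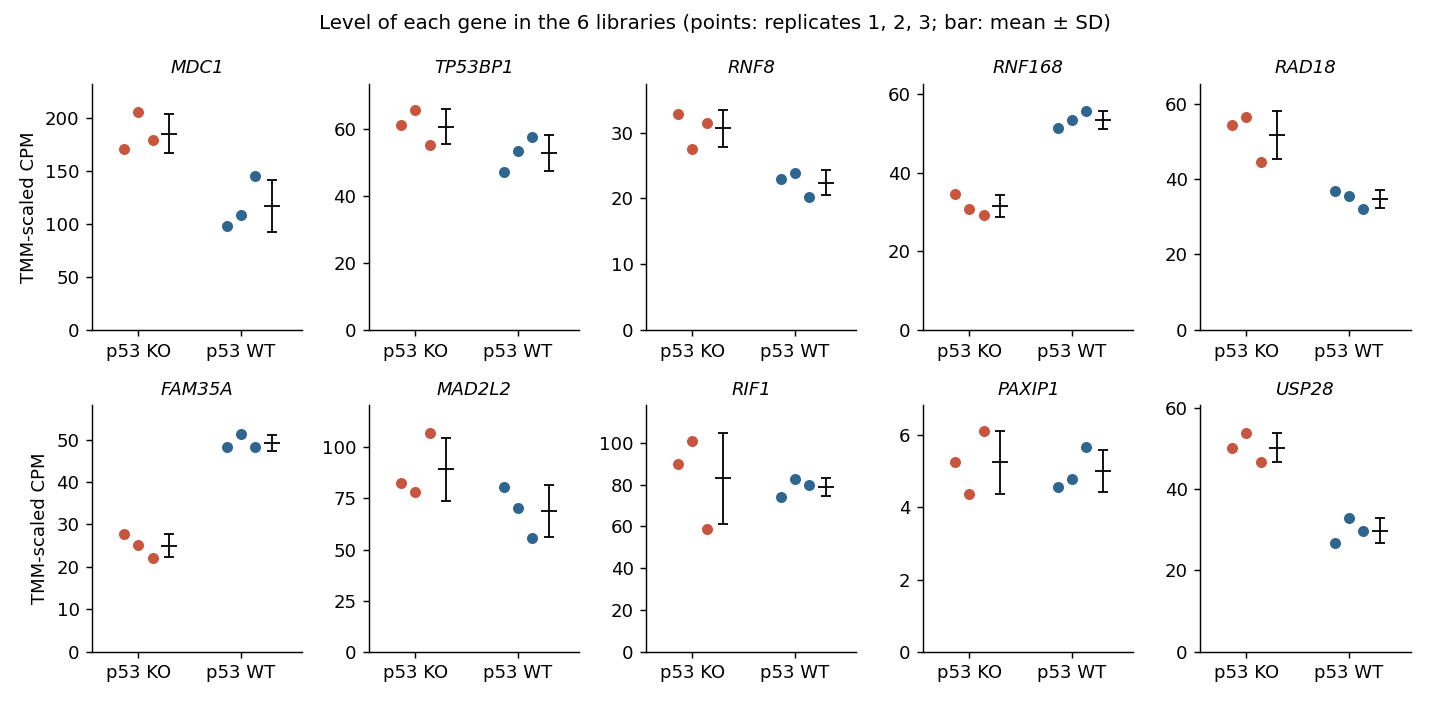
Level of each of the 10 genes in TMM-scaled CPM on axes that start at 0, with 1 point per library (p53 KO left in red, p53 WT right in blue) and the mean ± SD (n = 3) as a black bar. RNF168 and FAM35A lie lower in all p53 KO libraries, MDC1, RNF8, RAD18 and USP28 lie higher, and the other 4 genes overlap.

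The core promoters of 4 called genes are shown because these genes, whose calls held with every library left out in turn, moved in opposite directions within 1 pathway. RefSeq windows on GRCh38.p14, from 250 bases before to 50 after the annotated start, were matched for 8 of the 10 genes. MAD2L2 had 2 windows, and only its window 1 is counted among the 8 windows below. RNF168, which was lower, is set beside MDC1, RAD18 and USP28, which were higher. Each is written 5′ to 3′ on the gene's strand. Capitals mark every match on either strand to GGGCGG (the GC box), CCAAT (the box bound by NF-Y), TTTGAA (the cell cycle element called CHR), CACGTG (the E-box), GCATGCGC (the core of the NRF1 site) or TGACG (part of the CRE), and neighbouring GC boxes may overlap.
RNF168 promoter, chr3:196503719-196504018, minus strand: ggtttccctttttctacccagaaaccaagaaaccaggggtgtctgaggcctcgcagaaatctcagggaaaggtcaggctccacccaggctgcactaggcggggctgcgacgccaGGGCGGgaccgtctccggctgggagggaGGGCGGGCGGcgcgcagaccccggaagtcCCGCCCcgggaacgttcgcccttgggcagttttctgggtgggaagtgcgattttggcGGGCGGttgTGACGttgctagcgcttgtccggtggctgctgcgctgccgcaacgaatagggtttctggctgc
MDC1 promoter, chr6:30717232-30717531, minus strand: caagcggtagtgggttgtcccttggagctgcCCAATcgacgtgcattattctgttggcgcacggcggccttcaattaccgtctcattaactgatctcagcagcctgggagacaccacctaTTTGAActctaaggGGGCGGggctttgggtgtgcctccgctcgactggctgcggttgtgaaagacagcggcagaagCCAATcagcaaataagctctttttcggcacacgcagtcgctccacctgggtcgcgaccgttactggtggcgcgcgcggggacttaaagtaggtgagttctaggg
RAD18 promoter, chr3:8963423-8963722, minus strand: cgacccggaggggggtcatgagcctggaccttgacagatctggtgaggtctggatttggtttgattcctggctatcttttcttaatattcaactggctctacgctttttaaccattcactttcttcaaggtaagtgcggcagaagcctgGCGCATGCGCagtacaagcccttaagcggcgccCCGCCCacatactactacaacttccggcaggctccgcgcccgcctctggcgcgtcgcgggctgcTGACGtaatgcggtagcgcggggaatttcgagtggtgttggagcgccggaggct
USP28 promoter, chr11:113875523-113875822, minus strand: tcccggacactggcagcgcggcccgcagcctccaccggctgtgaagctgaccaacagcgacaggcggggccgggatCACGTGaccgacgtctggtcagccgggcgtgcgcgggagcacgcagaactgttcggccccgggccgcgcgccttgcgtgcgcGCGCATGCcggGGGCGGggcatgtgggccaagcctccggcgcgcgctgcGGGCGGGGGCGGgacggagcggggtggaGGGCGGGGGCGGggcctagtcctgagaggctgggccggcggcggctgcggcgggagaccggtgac
A GC box stood in all 8 windows and in 45% of the 35116 RefSeq windows of this length. MDC1 held TTTGAA, found in 15.2% of windows, and 2 matches to CCAAT, found in 34.6%. Among the 8 windows TTTGAA also stood in RIF1, and CCAAT in RIF1, RNF8 and TP53BP1. RIF1 and TP53BP1 were not called, so these motifs were not particular to the genes that moved. RAD18 and USP28 both held GCATGCGC, found in 3.05% of windows. In RAD18 the motif matched on both strands, overlapping itself. USP28 held CACGTG, found in 7.26%, and RNF168, RAD18 and RIF1 held TGACG, found in 24.6%. Window 2 of MAD2L2, which is not among the 8, held both CCAAT and TGACG. No match to the p53 half-site by its consensus stood in any of the 8 windows, and 6.63% of all windows held one. These matches describe letters in a short window and are not binding sites.

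Among the readers, MDC1, the adaptor that binds the phosphorylated histone, was at 171, 206 and 180 CPM in p53 KO replicates 1, 2 and 3, against 98.0, 108 and 145 CPM in p53 WT. All 3 p53 KO libraries lay above all 3 p53 WT libraries, of which replicate 3 came closest. The log2 fold change was 0.66 (SE 0.14, adjusted p = 0.00216 by edgeR), or 1.59-fold. MDC1-AS1, an antisense RNA of the same locus, was at 23.6 ± 2.78 CPM in p53 KO and 14.7 ± 3.26 CPM in p53 WT (SD, n = 3), a log2 fold change of 0.69. Its count was 12.3% to 12.9% of that of MDC1 in p53 KO libraries and 11.9% to 13.2% in p53 WT libraries. The pair thus moved in step. The libraries were stranded, but how strand was set in counting is not stated, and reads of MDC1 and MDC1-AS1 cannot be told apart with certainty.

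TP53BP1, the reader at the centre of the axis, was at 61.2, 65.7 and 55.3 CPM in p53 KO, against 47.2, 53.6 and 57.8 CPM in p53 WT. The groups overlapped, with p53 KO replicate 3 below p53 WT replicate 3. The log2 fold change was 0.20 (95% interval -0.04 to 0.45, adjusted p = 0.230 by edgeR), so at this spread a change beyond 0.45 on the log2 scale lay outside the interval.

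The ligases split. RNF8, the first ligase at the break, was at 32.8, 27.5 and 31.5 CPM in p53 KO, against 23.01, 23.8 and 20.3 CPM in p53 WT. Every p53 KO library was above every p53 WT library, and the log2 fold change was 0.45 (SE 0.13, adjusted p = 0.0198 by edgeR). This call was lost without p53 WT replicate 2 (0.50, adjusted p = 0.0506 by edgeR), without p53 WT replicate 3 (0.38, adjusted p = 0.0974 by edgeR) and without p53 KO replicate 1 (0.40, adjusted p = 0.0721 by edgeR). It was also lost with the median of its neighbouring genes removed (0.34, adjusted p = 0.0833 by edgeR).

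RNF168, which spreads the histone ubiquitin mark that 53BP1 reads, went the other way. It was at 34.5, 30.7 and 29.3 CPM in p53 KO, against 51.2, 53.3 and 55.6 CPM in p53 WT. The 3 p53 KO libraries lay well below all p53 WT libraries, and the log2 fold change, -0.76, had an SE of 0.11 and an adjusted p = 0.000212 by edgeR, a level 1.69-fold lower. With the median of its neighbouring genes removed it was -0.36, still called. Within each library the count of RNF8 was 0.951, 0.897 and 1.08 times that of RNF168 in p53 KO, against 0.449, 0.447 and 0.365 times in p53 WT. The ratio does not depend on library scaling, was formed after the values were seen, and gave p = 0.1 in a two-sided exact permutation test, the smallest that 3 against 3 libraries allow. RNF8 was higher and RNF168 lower in every p53 KO library, so the ratio had to separate the groups. The test therefore adds no support to the 2 calls, and the ratio keeps the shift of the neighbours of RNF168.

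RAD18, a ligase that ubiquitylates PCNA for translesion synthesis and is also recruited to breaks by RNF8-dependent ubiquitin, was at 54.3, 56.4 and 44.6 CPM in p53 KO, against 36.7, 35.5 and 32.0 CPM in p53 WT. The groups did not overlap, and replicate 3 was the lowest library of each. The log2 fold change was 0.58 (SE 0.12, adjusted p = 0.00292 by edgeR), or 1.49-fold.

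Of the effectors, FAM35A was lower. It encodes the shieldin subunit now called SHLD2, which binds single-stranded DNA at the end. It was at 27.7, 25.2 and 22.2 CPM in p53 KO, against 48.2, 51.4 and 48.2 CPM in p53 WT. The 2 groups were far apart, and the log2 fold change was -0.97 (SE 0.12, adjusted p = 4.33e-05 by edgeR), or 1.96-fold lower. With the median of its neighbouring genes removed it was -0.42, still called. The gene has copies annotated as pseudogenes (FAM35BP, FAM35CP, FAM35DP and FAM35EP), whose summed counts were 3.59% to 5.20% of that of FAM35A in p53 KO libraries and 2.30% to 2.403% in p53 WT libraries, so reads assigned between copies are uncertain.

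MAD2L2, also called REV7, is the partner that joins shieldin subunits and also serves the translesion polymerase zeta. It was at 82.4, 78.1 and 107 CPM in p53 KO, against 80.6, 70.2 and 55.7 CPM in p53 WT. The groups overlapped narrowly at p53 KO replicate 2 and p53 WT replicate 1. The log2 fold change was 0.37 (95% interval 0.05 to 0.68, adjusted p = 0.0820 by edgeR). It passed the threshold without p53 WT replicate 1 (0.49, adjusted p = 0.0369 by edgeR), without p53 KO replicate 2 (0.45, adjusted p = 0.0473 by edgeR) and without the filter on low counts (0.35, adjusted p = 0.0251 by edgeR).

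RIF1, which binds phosphorylated 53BP1 and brings in shieldin, was at 89.7, 100.7 and 58.5 CPM in p53 KO, against 74.1, 82.8 and 80.0 CPM in p53 WT. Its p53 KO values lay on both sides of the p53 WT values, with replicate 3 lowest of all 6 libraries. The log2 fold change was 0.08 (95% interval -0.26 to 0.41, adjusted p = 0.785 by edgeR).

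PAXIP1 encodes PTIP, which binds 53BP1 and is also part of histone H3 methyltransferase complexes. It was at 5.27, 4.37 and 6.11 CPM in p53 KO, against 4.56, 4.79 and 5.67 CPM in p53 WT. The groups overlapped fully, and with 122 to 390 counts a library this was the least deeply counted of the 10 genes. The log2 fold change was 0.07 (95% interval -0.43 to 0.57, adjusted p = 0.872 by edgeR), so changes within that interval remain possible at this depth and spread. The smallest change that could be detected was not computed.

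USP28, a deubiquitinase that binds 53BP1 and can stabilise p53, had the largest increase of the 10 genes before the shift of its neighbours was taken into account. It was at 50.1, 53.8 and 46.7 CPM in p53 KO, against 26.8, 32.9 and 29.7 CPM in p53 WT. The groups were clearly separate, and the log2 fold change, 0.75, had an SE of 0.12 and an adjusted p = 0.000352 by edgeR, a level 1.69-fold higher. With the median of its neighbouring genes removed it was at 0.23 and no longer called, under MDC1, RAD18 and RNF8.

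Levels were compared between genes per kilobase of exon, with exon lengths from GENCODE 29. MAD2L2 was highest in both groups, at 46.96 ± 8.22 CPM per kb in p53 KO and 36.2 ± 6.59 CPM per kb in p53 WT (SD, n = 3), and MDC1 followed at 23.9 ± 2.34 CPM per kb in p53 KO and 15.1 ± 3.21 CPM per kb in p53 WT (SD, n = 3). In p53 KO the order went on with USP28, RAD18, FAM35A, RNF168, TP53BP1, RIF1 and RNF8, each overlapping the next over its 3 libraries, from 10.2 ± 0.72 CPM per kb for USP28 to 5.44 ± 0.49 CPM per kb for RNF8 (SD, n = 3). In p53 WT the order went on with FAM35A at 13.6 ± 0.51 CPM per kb and RNF168 at 9.98 ± 0.41 CPM per kb (SD, n = 3). FAM35A overlapped MDC1 there, and RNF168 overlapped neither neighbour. USP28, RAD18, RIF1 and TP53BP1 came next in p53 WT, each overlapping the next, before RNF8 at 3.97 ± 0.33 CPM per kb (SD, n = 3). PAXIP1 was last in both groups, at 1.37 ± 0.23 CPM per kb in p53 KO and 1.31 ± 0.15 CPM per kb in p53 WT (SD, n = 3). FAM35A and RNF168 thus stood above USP28 and RAD18 per length in p53 WT and below them in p53 KO.

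Position along the chromosome moved with several of these results. Each gene was set beside up to 25 protein-coding genes on each side with a mean of at least 2 CPM, and among all such genes 17.2% were called higher and 20.6% lower. Around FAM35A, on chromosome 10, 31 of 50 neighbours were lower and 1 was higher, with a median log2 fold change of -0.55. Around RNF168, near the end of chromosome 3, 18 of 42 neighbours were lower and 3 were higher, with a median of -0.39. Around USP28, on chromosome 11, 28 of 50 neighbours were higher and 2 were lower, with a median of 0.52. These 3 genes lay in stretches that moved the same way as they did.

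MDC1 and RNF8, on chromosome 6, and RAD18, on the other arm of chromosome 3 from RNF168, lay among genes that moved less. The median of the neighbours was 0.16 for MDC1, 0.11 for RNF8 and 0.09 for RAD18. Only 2 of 50 neighbours had a higher fold change than MDC1, 3 of 38 a higher one than RAD18, and 11 of 50 a higher one than RNF8. FAM35A was lower than 39 of its 50 neighbours and RNF168 was lower than 37 of its 42, while USP28 was higher than 33 of 50.

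When the local median entered the fit as an offset, FAM35A was still lower at -0.42 (SE 0.12, adjusted p = 0.0233 by edgeR) and RNF168 at -0.36 (SE 0.11, adjusted p = 0.0354 by edgeR). The offset was a fixed value, so the SEs and adjusted p-values of this fit leave out the spread among the neighbours. MDC1 was still higher at 0.51 (SE 0.13, adjusted p = 0.0158 by edgeR) and RAD18 at 0.49 (SE 0.12, adjusted p = 0.0112 by edgeR). USP28, at 0.23 (SE 0.12, adjusted p = 0.215 by edgeR), and RNF8, at 0.34 (SE 0.13, adjusted p = 0.0833 by edgeR), no longer passed. That left 2 genes higher and 2 lower, where 19.7% of all genes were called in the same fit, 9.49% higher and 10.2% lower. Of the 22352 genes behind these shares, 17144 had a local median, and the rest entered uncorrected. The share among genes of a like level was not counted for this fit. In the fit without correction it was 37.2%, against 26.5% of all genes. The cause of the shared shifts along these stretches was not tested.

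**Figure D2:**
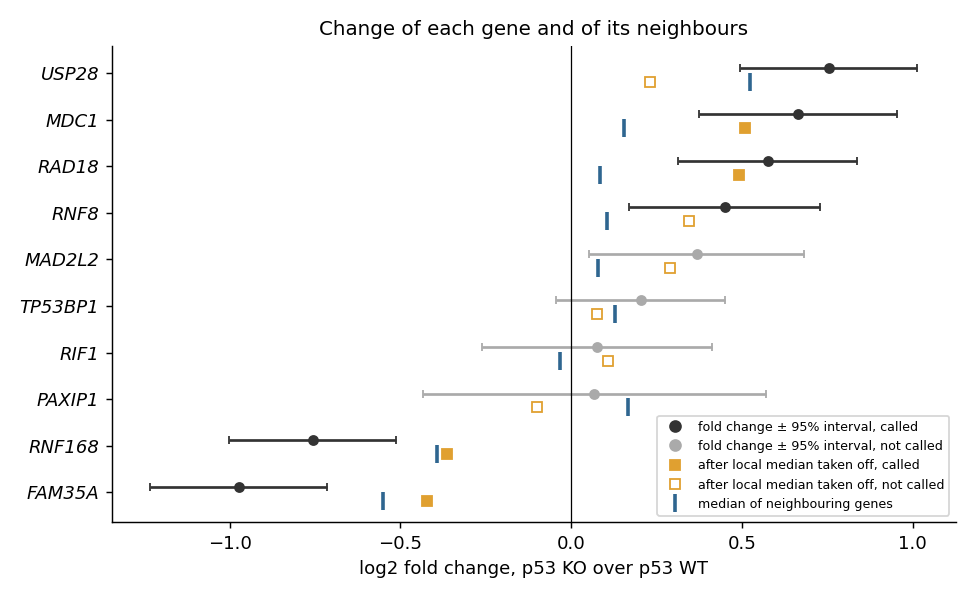
Log2 fold change of p53 KO over p53 WT for the 10 genes: circles with 95% intervals are the fit without correction (black where called, grey where not), orange squares the fit with the local median removed (filled where called), and blue ticks the median of the neighbouring genes. For USP28 the square lies at 0.23 and the circle at 0.75, while the squares of MDC1 and RAD18 lie at 0.51 and 0.49.

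**Figure D3:**
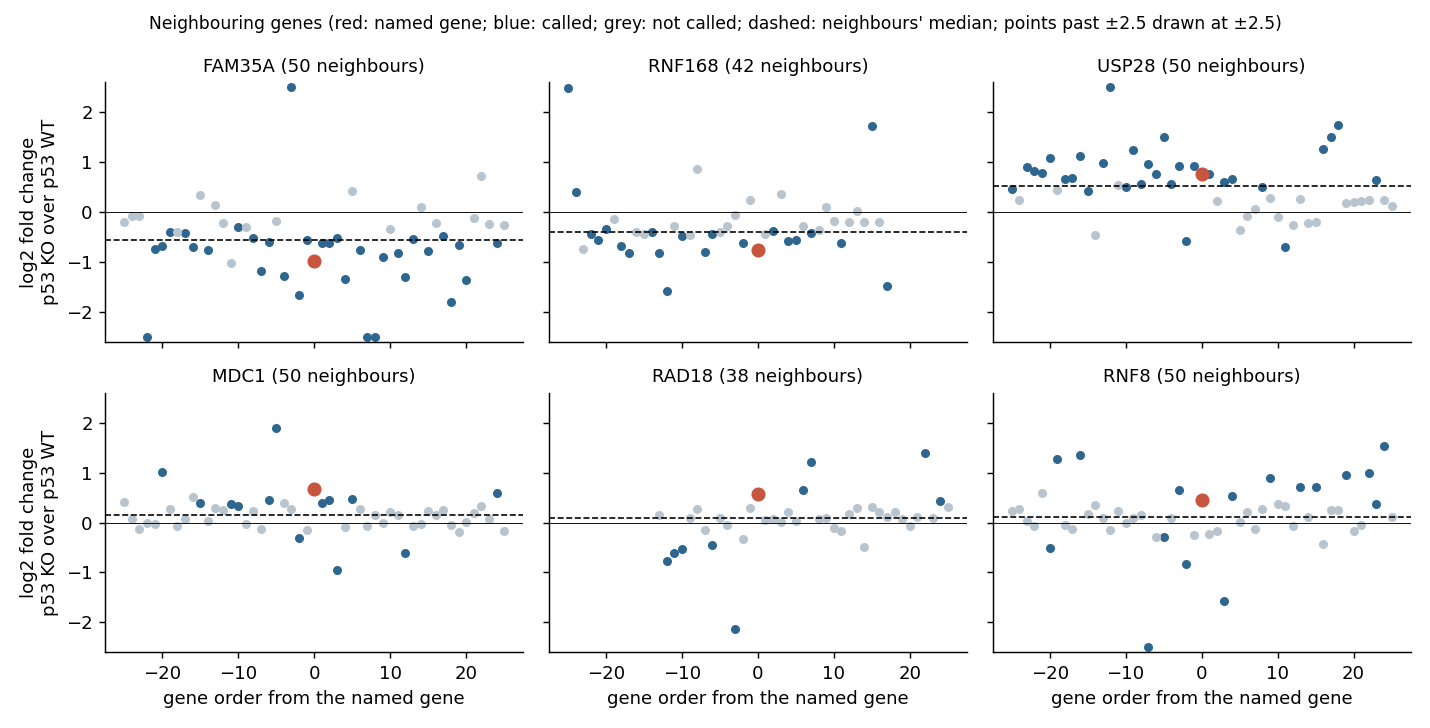
Log2 fold change of p53 KO over p53 WT for up to 25 genes on each side of 6 genes, in gene order (x axis), with the named gene in red, called neighbours in blue, others in grey and the neighbours' median dashed. Neighbours of FAM35A and RNF168 lie mostly below 0, those of USP28 mostly above 0, and those of MDC1, RAD18 and RNF8 spread around 0.

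Partners of the 10 genes were read in 8 lists of 116 distinct genes, of which 114 were tested. Of these 21 rose and 26 fell, which is 41.2% called, against 37.8% of protein-coding genes averaging 2 CPM or more and 26.5% of all genes tested, and their median log2 fold change was 0.02. With the local median removed 8 were higher and 16 lower, 6 and 13 of them with the same call as before. Without p53 WT replicate 1 or p53 KO replicate 2 the count of higher partners was 13.

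Effectors of 53BP1 and shieldin, which include the CST complex and the DNA polymerase alpha and primase that fill in resected ends, changed in 4 of 17 genes, with a list median of 0.12. PRIM1, the primase catalytic subunit, was at 61.5 ± 6.73 CPM in p53 KO and 47.0 ± 1.95 CPM in p53 WT (SD, n = 3), and POLA1, the catalytic subunit of polymerase alpha, rose by 0.43 on the log2 scale. OBFC1, the CST subunit also called STN1, was at 13.8 ± 2.65 CPM in p53 KO and 24.4 ± 1.17 CPM in p53 WT (SD, n = 3), a log2 fold change of -0.83, and -0.59 with the local median removed. NUDT16L1, which encodes the 53BP1 inhibitor TIRR, fell by 0.47 on the log2 scale but had -0.04 with the local median removed. PRIM1 and POLA1 also lost their calls there, at 0.25 and 0.24. DYNLL1, a dynein light chain that binds 53BP1, had 228 ± 22.7 CPM in p53 KO and 221 ± 11.3 CPM in p53 WT (SD, n = 3) and was not called.

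Of 26 other ubiquitin and SUMO enzymes and readers at breaks, 3 rose and 4 fell, with a median of -0.18. VCP, the segregase that extracts ubiquitylated proteins from chromatin, was at 573 ± 28.7 CPM in p53 KO and 873 ± 4.59 CPM in p53 WT (SD, n = 3), a log2 fold change of -0.61. Its cofactor UFD1L had -0.70, and both stayed lower with the local median removed, at -0.27 and -0.44. BRCA1, the ligase that opposes 53BP1, had 0.51 and PCGF2, a Polycomb ring protein, 0.34. Both lost the call after that correction, at 0.40 and 0.13. TRIP12, a ligase that limits RNF168, had -0.23 and was not called. Of 12 tested deubiquitinases 1 rose, USP11 (0.54, and -0.07 with the local median removed), and 3 fell, with a median of 0.03. OTUB2, an enzyme that restrains RNF8-dependent ubiquitin, had -1.53 at 2.33 ± 0.91 CPM in p53 KO and 6.73 ± 0.30 CPM in p53 WT (SD, n = 3), and -0.55 without a call with the local median removed. USP7, which acts on MDM2 and p53, had -0.33, and -0.11 without a call after that correction. The other that fell, USP16, named after its values were seen, had -0.47 and kept its call at -0.48 with the local median removed. USP34, which stabilises RNF168, had -0.06 and was not called.

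Upstream of the axis, 6 of 20 kinases, sensors and histone mark enzymes rose and 5 fell, with a median of 0.10. CSNK2A2, a catalytic subunit of the casein kinase that phosphorylates MDC1, had 0.93, and 0.18 without a call with the local median removed. SETD8, the methyltransferase that starts the histone H4 mark read by 53BP1, was at 48.4 ± 0.65 CPM in p53 KO and 32.0 ± 0.99 CPM in p53 WT (SD, n = 3), a log2 fold change of 0.60, and 0.55 with the local median removed. NBN, the subunit of the break sensor that binds MDC1, had -0.63, and -0.40 after that correction. KDM4A, a demethylase whose reader domain competes with 53BP1, had -0.54, and -0.21 without a call after it. WHSC1, a histone methyltransferase, had 0.04 and was not called.

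Partners of single genes were also called in both directions, as were protein-coding genes averaging 2 CPM or more (17.2% higher, 20.6% lower). Of 9 partners of PTIP in its methyltransferase complexes KDM6A rose (0.78) and WDR5 (-0.43) and PAGR1 (-0.39) fell, with a median of 0.17. With the local median removed PAGR1, which binds PTIP directly, stayed lower at -0.57, while KDM6A (0.32) and WDR5 (0.12) lost their calls. Of 6 genes tied to USP28 or to the surveillance of prolonged mitosis, 3 rose and 1 fell, with a median of 0.37. CEP192, a centrosomal scaffold, had 0.60, TRIM37, a ligase that limits centrosome assembly, 0.39, and FBXW7, a substrate receptor that USP28 counteracts, -0.70. With the local median removed TRIM37 (0.46) and FBXW7 (-0.73) kept their calls, and CEP192 (0.47) kept its call only narrowly (adjusted p = 0.0499 by edgeR). MYC, a substrate that USP28 stabilises, had 0.19 and was not called, and 0.40 with a call (adjusted p = 0.00687 by edgeR) in that fit.

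Around RAD18, 3 of 16 genes of translesion synthesis and post-replication repair rose and 6 fell, with a median of 0.11. UBE2B, an E2 enzyme that works with RAD18, was at 38.3 ± 4.97 CPM in p53 KO and 23.2 ± 2.34 CPM in p53 WT (SD, n = 3), a log2 fold change of 0.72, and 0.69 with the local median removed. HLTF, a ligase that extends ubiquitin chains on PCNA, had 1.23, and 0.35 without a call after it. POLH, the translesion polymerase eta and a known p53 target, was at 30.1 ± 3.68 CPM in p53 KO and 58.1 ± 3.04 CPM in p53 WT (SD, n = 3), a log2 fold change of -0.94, and -0.96 with the local median removed. SMC6 had -0.97, and -0.57 without a call after it, and PCNA had 0.23 without a call, but 0.30 with one (adjusted p = 0.0278 by edgeR) in that fit. Of 9 resection and recombination factors on the opposing side 2 rose and 3 fell, with a median of -0.09. RBBP8, which encodes the resection factor CtIP, had -0.48 and RMI1 -1.10, and both stayed lower at -0.39 and -0.65 with the local median removed. BLM, a helicase, had 0.61, and 0.04 without a call after the correction, and EXO1, a resection nuclease, had -0.09 and was not called.

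**Figure D4:**
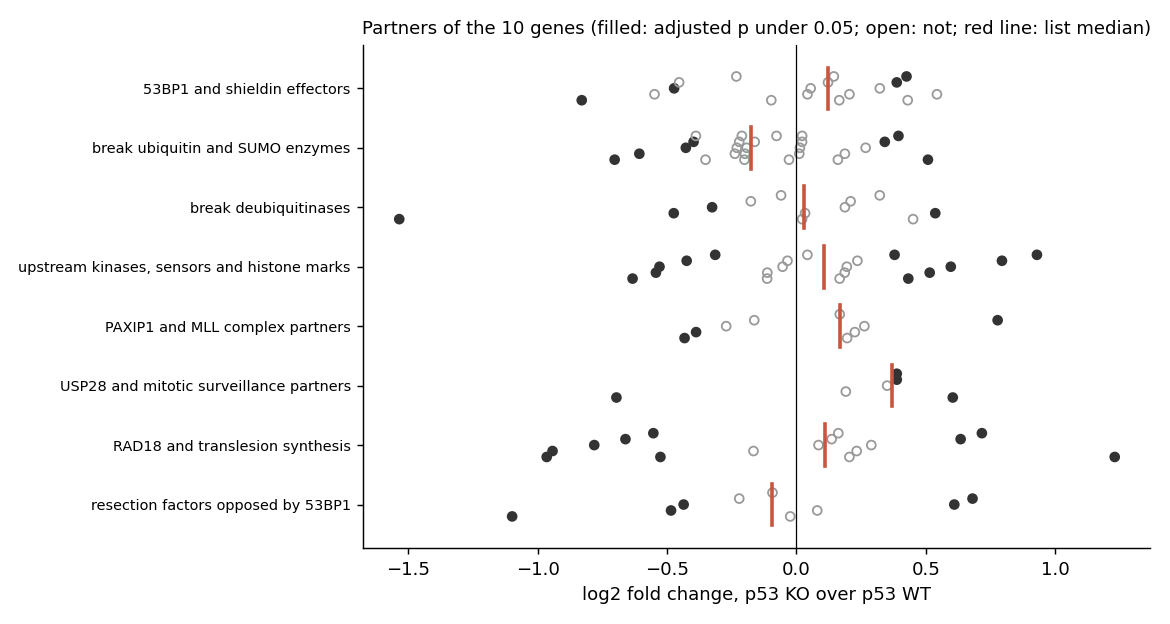
Log2 fold change of p53 KO over p53 WT for the tested genes of 8 partner lists, 1 point per gene (filled where the adjusted p was under 0.05), with the list median as a red line. Every list holds filled points on both sides of 0, and the medians run from -0.18 to 0.37.

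In the authors' deposited table, whose fold changes run p53 WT over p53 KO, 6 of the 10 genes had an adjusted p under 0.05. The share of all its genes under that threshold was not counted here, so this count has no background. It rests on the same libraries and is not independent support. In the authors' deposited table FAM35A had a log2 fold change of 0.95 and RNF168 0.74, while USP28 had -0.78, MDC1 -0.69, RAD18 -0.60 and RNF8 -0.47. The authors' deposited table marks 124 of its 35987 genes as intersecting a p53 cistrome, and 0 of the 10 genes carry that mark.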

How the data were processed

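Polyadenylated RNA of 6 libraries (3 p53 KO, 3 p53 WT) was sequenced with a stranded kit, per the labels' protocols. The authors deposited raw counts per gene symbol. GRCh37 (hg19) and the tools HISAT2 2.1.0, fastp 0.21.0 and DESeq2 1.3.6 are named per the submitters' processing notes. Counting tool, annotation and strand setting: not given in the sources used here. Per gene, the authors' deposited table has a log2 fold change and its SE, a signal (mean normalised count), a test score and p-values. In 0 of its rows did the fold change and the test score have the same sign, and the p53 target CDKN1A stood at 3.54, hence the fold changes were taken to run p53 WT over p53 KO.

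The test was the quasi-likelihood F-test of edgeR 4.0.16 (R 4.3.3, robust, TMM factors, filterByExpr), with Benjamini-Hochberg adjustment over 22352 genes. Each SE is the absolute log2 fold change over root F. A count of 0 allows 3 counts, which is 0.0376 to 0.147 CPM, counting error only. Replicates differed beyond sampling noise (chi-square per df at least 16.7). Alternatives used DESeq2 1.42.0 and limma 3.58.1 (voom), other factors and filters, a block, left-out libraries and a local median of the 50 nearest of 12095 genes, in RefSeq GRCh38.p14 order. The fits were tested on simulated data. Genes named were the 10, and per partner list at most 2 called in each direction by adjusted p and the most abundant one not called. VIM, SPARC, COL1A1, COL1A2, BGLAP, S100A4, CORO1A, CD68, ERG, KRT8, KRT18 and the markers at 0 were named after their values were seen. The 10 genes and the lists were chosen with earlier results of these data known. The endothelial marker PECAM1 is not analysed here, and 3 genes that the naming rule or the marker lists hold are not reported here.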

Additional observations from a re-analysis of the deposited data

How the results depend on the processing

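FAM35A, RNF168, MDC1 and RAD18 kept direction and call under all 14 alternatives run, with log2 fold changes of -1.05 to -0.42, -0.83 to -0.36, 0.51 to 0.84 and 0.49 to 0.68. With the local median removed 2 of the 10 genes were higher, and 8 partners were higher and 16 lower. RNF8 lost its call in 5 alternatives, the threshold of 0.01 among them, and USP28 in 1. The direction of RIF1 turned without p53 KO replicate 2 (-0.0903; up to 0.281 without p53 KO replicate 3), and that of PAXIP1 turned with the local median removed (-0.10) and without p53 WT replicate 1 (-0.0047) or p53 KO replicate 3 (-0.0339; up to 0.180 without p53 KO replicate 2), none of them called; the cause was not tested. At an adjusted p under 0.01, 1659 genes were higher and 2099 lower. With 1 library left out, 3 to 5 of the 10 genes were higher and 2 lower in every fit, 1872 to 2857 of all genes were higher and 2288 to 3202 lower, and 13 to 27 partners were higher and 18 to 24 lower.

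Same-numbered libraries did not deviate together (r = 0.02, 0.03 and -0.03 across genes for numbers 1, 2 and 3). For pairs with different numbers r ran from -0.11 (p53 KO replicate 2 with p53 WT replicate 1) to 0.08 (p53 KO replicate 3 with p53 WT replicate 1). With the replicate number as a block 4 of the 10 genes were higher and 2 lower, as without it, 2297 of all genes were higher and 2862 lower, and 18 partners were higher and 23 lower. PAXIP1 had the fewest counts of the 10 genes, which limits its precision.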

Other observations

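RIF1 and MAD2L2, neither of which passed the threshold, had the widest spread among p53 KO libraries, with coefficients of variation of 26.4% and 17.5%, against 5.58% and 18.2% among p53 WT libraries. In p53 KO replicate 3 RIF1 was the lowest of its group, with a deviation of -0.47 from the group mean in log2 CPM, while MAD2L2 was the highest, with a deviation of 0.28. In p53 KO replicate 2 the deviations were 0.32 for RIF1 and -0.18 for MAD2L2. The library of p53 KO replicate 3 had the fewest counts of all, 20393909. RIF1 and MAD2L2 have the longest and shortest exon lengths of the 10 genes, 15061 and 1899 bases. The part of depth and gene length in these deviations was not tested. FAM35A, the other shieldin subunit among the 10 genes, varied by 11.1% among p53 KO libraries and 3.71% among p53 WT libraries. The count of MAD2L2 was 2.98, 3.10 and 4.83 times that of FAM35A in p53 KO replicates 1, 2 and 3, against 1.67, 1.37 and 1.15 times in p53 WT replicates, a ratio formed after the values were seen that gave p = 0.1 in a two-sided exact permutation test, the smallest possible. FAM35A alone already separated the groups widely, so this test adds no support.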
